A study of Mus musculus with 6 samples.

Results

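The 296 protein-coding genes named Zfp and a number whose counts summed to at least 600 over the 6 libraries were described, out of 334 such genes at any count and 43346 genes in the count table. Members were therefore chosen by abundance and not by the difference between the groups, although the deeper senescent libraries weigh somewhat more in a raw sum. The RNA came from mouse adult fibroblasts (MAFs), primary cells grown from the ears of adult C57BL6/J mice, and no allele or transgene separated the groups. The 3 control cultures were sham irradiated, while the 3 senescent cultures received 20 Gy of X-rays and were collected after 21 days. Both groups grew at 3% O2, were given 100 nM dexamethasone for 2 hours to set their circadian clocks, and were collected 12 hours later. Poly(A) RNA was sequenced, and the libraries held 50288454 to 82229553 counts. Nothing in the labels says whether the 3 samples of a group came from separate cultures or animals, so p-values measure only the spread between these samples. In bulk RNA, fewer cells of a type and less RNA per cell cannot be told apart.

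Zfp is the mouse name for a zinc finger protein, in which short loops held by a zinc ion contact DNA, RNA or other proteins. Most members carry tandem C2H2 fingers, each reading a few bases, so that an array of fingers recognises a long and specific DNA site. Many of these also carry a KRAB box, which recruits TRIM28 and through it the histone methyltransferase SETDB1, HP1 proteins, histone deacetylases and DNA methylation. KRAB zinc finger genes multiplied by local duplication and lie in tandem clusters, and they are best known for silencing retroelements and for keeping imprints. Others steer cell lineages, bind RNA, or act at replication forks and spindles, and a few share the name without sharing the fold.

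In the senescent libraries the arrest markers stood as the labels state. The cyclin-dependent kinase inhibitor gene Cdkn1a (p21) was higher by a log2 fold change of 2.33, and the proliferation marker Mki67 was lower by -5.94. Fibroblast markers summed to 63764 to 65730 CPM (counts scaled to a common library size) in the control and 47958 to 53449 in the senescent libraries, most of it Fn1. They went both ways, with 3 of 10 higher (Dcn at 3.50, Thy1 at 1.47 and Lum at 0.85) and 5 lower, and Fn1 was not called (-0.06). Chondrocyte markers, which ear cartilage could supply, summed to 4974 to 5536 CPM in the control and only 358.6 to 444.6 in the senescent libraries. Of 8 such markers, the 7 that passed the filter on low counts were all lower, and none was at 0 in every library. Macrophage markers were low in both groups (8.24 to 9.05 against 18.7 to 21.8 CPM), with 7 of 8 in the table and C1qa at 1 count in all. The 6 macrophage markers tested were all higher in the senescent libraries, with log2 fold changes of 0.38 to 5.90. Endothelial markers (2.55 to 2.93 against 8.29 to 8.85 CPM) and keratinocyte markers (16.4 to 17.0 against 9.53 to 9.94 CPM) were low as well. The keratinocyte sum followed Trp63 (13.1 to 4.17 CPM on average), while of the 4 keratinocyte markers tested 1 was higher, 1 lower and 2 not called. All 5 endothelial markers tested were higher (median 2.25). Muscle markers (15.5 to 20.9 against 15.5 to 28.1 CPM) had 2 of 3 tested higher and 1 not called. Schwann cell and melanocyte markers (47.4 to 50.8 against 39.15 to 42.8 CPM) had 3 of 4 tested lower and 1 not called. Of these, Sox10 had too few counts to be tested, with 0 in each control library and 62 in all. The part of these cells in the Zfp values was not tested. Senescent replicate 3 stood apart from the other two: its squared differences from them were 12.7 and 16.3 times what counting alone gives, against 2.14 between senescent replicates 1 and 2 and 1.75 to 4.63 among the controls.

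Zfp genes moved in both directions and by little. Of the 296 members, 84 rose and 89 fell with senescence (adjusted p under 0.05, quasi-likelihood test of edgeR, Benjamini-Hochberg adjustment over 17589 genes), and 123 did not pass. With scaling by library size alone the split was 100 higher and 67 lower. All genes tested shifted the same way, to 6929 higher and 5370 lower from 6360 and 6005. The 173 members called are 58.4% of all, below the 70.3% called among all genes tested, and this held in each direction (28.4% against 36.2% higher, 30.1% against 34.1% lower). Past the limits used in the study, an unadjusted p under 0.05 and a change over 2-fold, were 10 higher and 15 lower members, which is 8.45% of them against 30.1% of all genes tested (17.8% higher and 12.3% lower). Among protein-coding genes that met the same sum of 600 counts, 22.5% were past these limits. The control and senescent values did not overlap for 195 members (65.9%, against 75.3% of all genes tested). The median log2 fold change was -0.04 with quartiles of -0.31 and 0.30, where all genes tested had a median of 0.01 and quartiles of -0.54 and 0.63. Without senescent replicate 3, 93 members rose and 108 fell (median -0.05). That fit also called more of all genes, 7052 higher and 6643 lower of 17779 tested.

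**Figure D1:**
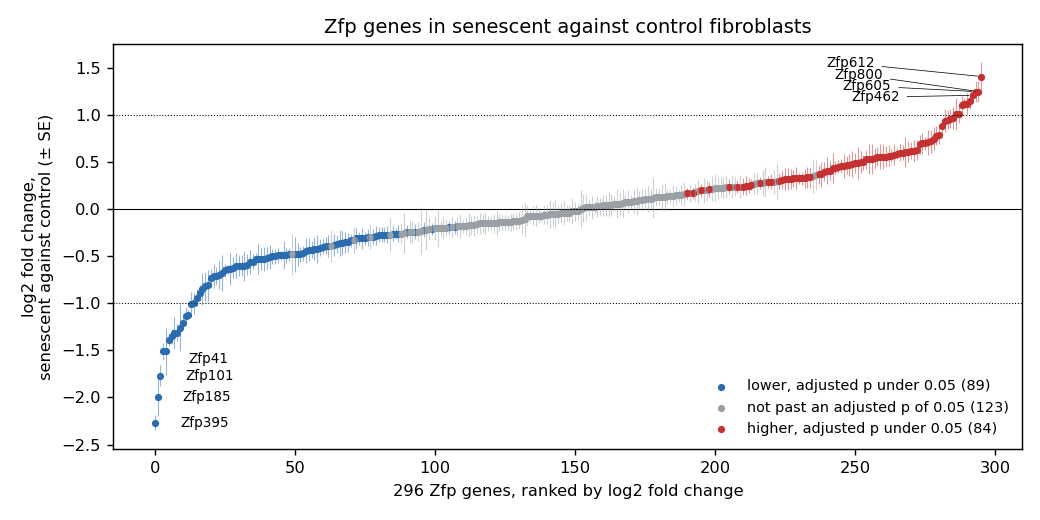
Each point is 1 of the 296 Zfp genes, ranked on the horizontal axis by its log2 fold change (senescent against control, vertical axis, with the SE as a thin line); red points are higher and blue points lower at an adjusted p under 0.05, and dotted lines mark a 2-fold change. Most genes lie between the dotted lines, and the lower end, led by Zfp395 at -2.27, reaches further from 0 than the upper end, led by Zfp612 at 1.41.

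Promoters are shown for 3 members that changed over 2-fold and whose start site in RefSeq matches the end of the gene in the count table, Zfp365 and Zfp605, which rose, and Zfp423, which fell. They were chosen after their values were seen. The 250 bases before each start site are given 5′ to 3′ on the strand of the gene, from RefSeq on GRCm38.p6, with the E-box CACGTG in capitals. This E-box is the site BMAL1 binds. The study gives the AP-1 site as TGASTCA, where S is C or G. The motif searched here was TGANTCA, with any base at N, so it is looser and its matches include others than that site. CACGTG and TGANTCA read the same on either strand, and their matches may share bases.
Zfp365 (chr10:67912663-67912912, minus strand): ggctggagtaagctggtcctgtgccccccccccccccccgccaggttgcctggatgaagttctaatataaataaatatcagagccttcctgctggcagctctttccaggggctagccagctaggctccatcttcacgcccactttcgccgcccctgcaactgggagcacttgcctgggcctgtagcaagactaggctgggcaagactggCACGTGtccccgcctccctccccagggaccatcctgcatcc
Zfp605 (chr5:110109842-110110091, plus strand): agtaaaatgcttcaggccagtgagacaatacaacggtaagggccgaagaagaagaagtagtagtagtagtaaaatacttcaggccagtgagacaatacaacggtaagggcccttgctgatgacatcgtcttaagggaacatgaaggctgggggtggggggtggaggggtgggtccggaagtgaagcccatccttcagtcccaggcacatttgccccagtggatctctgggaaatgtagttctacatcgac
Zfp423 (chr8:87959596-87959845, minus strand): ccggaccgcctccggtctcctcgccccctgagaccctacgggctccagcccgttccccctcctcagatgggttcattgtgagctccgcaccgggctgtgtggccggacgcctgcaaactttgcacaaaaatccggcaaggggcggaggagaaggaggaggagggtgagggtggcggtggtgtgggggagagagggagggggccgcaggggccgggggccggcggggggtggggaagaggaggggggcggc
The E-box of Zfp365 begins at base -41 from the start site, and the other two stretches hold neither motif. The stretch of Zfp423 is 71.6% G or C, that of Zfp365 61.6% and that of Zfp605 50.8%. RefSeq gave a promoter of 300 bases (250 before and 50 after the start site) for 244 of the 296 members. CACGTG was found in 18 of these (7.38%), against 7.15% of all 32851 promoters, and these 18 were 6 of 72 members called higher (8.33%), 4 of 68 called lower (5.88%) and 8 of 104 not called (7.69%). TGANTCA was found in 9 members (3.69%), against 7.81% of all promoters. Of these 9, 2 were among the 72 called higher, 1 among the 68 called lower and 6 among the 104 not called. Among members past the study's limits with such a promoter, CACGTG was in 1 of 8 higher, which was Zfp365, and in 0 of 8 lower. TGANTCA was in 0 of 8 and 0 of 8, so the Zfp365 promoter shown is an exception among them. A match is only a description of these letters.

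The largest decrease was that of Zfp395, whose human counterpart was described as a factor binding the huntingtin gene promoter. It stood at 40.3, 42.7 and 42.3 CPM (CPM scaled by the trimmed mean of M-values, TMM) in the control libraries and at 8.23, 9.39 and 8.26 CPM in the senescent libraries, a log2 fold change of -2.27 ± 0.08 (SE, n = 3 per group; adjusted p = 1.77e-07, edgeR). The groups of Zfp395 were far apart. Zfp101, a KRAB zinc finger gene on chromosome 17, stood at 49.9, 44.9 and 45.1 CPM against 13.6, 11.9 and 15.5 CPM, a change of -1.77 ± 0.11 (adjusted p = 3.14e-06). Its groups were as clearly apart. Zfp608, a relative of the cohesin-loader partner Zfp609, stood at 41.8, 40.6 and 40.5 CPM against 15.3, 15.4 and 16.1 CPM, a change of -1.39 ± 0.06 (adjusted p = 5.58e-07). Within each group of Zfp608 the libraries were nearly level. Zfp41 was at 15.9 ± 0.696 CPM (SD, n = 3) in the control and 5.59 ± 0.504 CPM in the senescent group, a change of -1.51 ± 0.09 (adjusted p = 3.53e-06). Zfp414 was at 18.2, 22.5 and 21.7 CPM against 7.83, 9.72 and 4.46 CPM, a change of -1.51 ± 0.25 (adjusted p = 0.000977), with senescent replicate 3 the lowest library. Zfp185 is named a zinc finger gene but encodes a LIM-domain protein of the actin cytoskeleton, and no C2H2 finger was found in it. It was at 4.13, 3.23 and 2.92 CPM against 1.08, 0.644 and 0.889 CPM, a change of -1.99 ± 0.21 (adjusted p = 8.01e-05).

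Rises were smaller. The largest was that of Zfp612, a KRAB gene with few reads, at 1.14, 1.57 and 1.17 CPM in the control and 3.61, 3.21 and 3.60 CPM in the senescent libraries, a log2 fold change of 1.41 ± 0.15 (adjusted p = 7.82e-05, edgeR). Zfp800, known from the development of pancreatic endocrine cells, stood at 13.4, 11.6 and 11.5 CPM against 26.8, 27.0 and 32.8 CPM, a change of 1.25 ± 0.11 (adjusted p = 2.38e-05). Both genes were higher in every senescent library than in any control library. Zfp605 rose by the same 1.25 ± 0.11, from 4.17, 4.20 and 3.64 CPM to 9.33, 8.85 and 10.4 CPM (adjusted p = 2.05e-05), and its promoter, shown above, holds neither motif. Zfp462, a regulator with 33 finger patterns that keeps heterochromatin at lineage genes, stood at 29.2, 30.0 and 28.8 CPM against 65.3, 69.2 and 69.6 CPM, a change of 1.21 ± 0.06 (adjusted p = 7.64e-07). It had the narrowest spread of the 6 leading rises. Zfp697 (14.7 ± 0.554 CPM in control, 32.8 ± 2.37 CPM in senescent cells) rose by 1.15 ± 0.08 (adjusted p = 6.29e-06). Zfp715, a KRAB gene, rose by 1.12 ± 0.11 (adjusted p = 4.55e-05), from 23.1, 23.0 and 21.7 CPM to 45.3, 44.4 and 57.6 CPM, with senescent replicate 3 the highest.

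Per kilobase of exon, Zfp146 had the highest mean level over the 6 libraries (40.0 CPM per kb), followed by Zfp703 (37.1), Zfp106 (29.5) and Zfp207 (28.3). Zfp146, also called OZF, consists of little but fingers and was nearly level at 79.3, 78.6 and 76.3 CPM against 85.0, 86.2 and 91.5 CPM, a log2 fold change of 0.17 ± 0.06 (adjusted p = 0.0276, edgeR). Zfp207, or BuGZ, binds spindle microtubules and loads the checkpoint protein BUB3. It stood at 200.3, 198.0 and 203.2 CPM against 171.2, 166.7 and 190.8 CPM, a change of -0.19 ± 0.07 (adjusted p = 0.0330). Both calls were small and each was lost in several other fits, to an adjusted p of up to 0.119 for Zfp146 and 0.176 for Zfp207. At the other end, the members just inside the limit of 600 counts were Zfp580 (620 counts in all) and Zfp428 (637), with log2 fold changes of -0.52 and 0.30. Just outside lay Zfp473 (572 counts) and Zfp879 (557), with -0.84 and 0.41. Zfp580 turned to 0.02 once the GC and length trend of each library was removed.

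Genes known for lineage choice held several of the strongest changes. Of 14 such genes listed, 10 were members, and of these 5 were lower, 4 of them over 2-fold, 3 were higher and 2 did not pass, with a median log2 fold change of -0.47 (all genes tested, 0.01). The 80% called compare with 70.3% of all genes tested, the 50% lower with 34.1% and the 30% higher with 36.2%. Past the study's limits were 5 of the 10 (50%), 1 higher and 4 lower. Of all genes tested 30.1% were past them, 17.8% higher and 12.3% lower. The counts higher and lower were the same without senescent replicate 3 (median -0.40). With the GC and length trend removed the calls were again 3 higher and 5 lower, and the median was -0.27. However, 2 in place of 4 were then lower over 2-fold, with Zfp703 at -0.97 and Zfp516 at -0.93. Higher over 2-fold were 2 in place of 1, with Zfp503 at 1.13. Zfp423, which commits cells to the fat lineage and partners EBF factors, was at 4.13, 4.54 and 5.95 CPM in the control and 2.00, 2.18 and 1.68 CPM in the senescent libraries, a change of -1.32 ± 0.17 (adjusted p = 0.00023, edgeR). Its relative Zfp521, which opposes EBF1 and is known from blood, bone and neural progenitors, was at 186.0, 188.5 and 186.0 CPM against 87.7, 86.3 and 83.6 CPM, a change of -1.12 ± 0.05 (adjusted p = 6.32e-07). Both relatives, each with 27 finger patterns, fell in every senescent library. Zfp516, a brown-fat activator of Ucp1, was at 73.2, 77.1 and 76.4 CPM against 36.3, 37.5 and 30.0 CPM, a change of -1.13 ± 0.09 (adjusted p = 1.53e-05). Zfp217, which works with the CoREST corepressor, was at 33.2 CPM on average in control and fell by 0.65 ± 0.07 on the log2 scale (adjusted p = 6.28e-05), and its groups did not overlap.

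Zfp703 and Zfp503 belong to the same small NET family of corepressors, without tandem C2H2 fingers, and moved in opposite directions. Zfp703 was at 163.5, 179.7 and 180.5 CPM in the control and 71.1, 77.0 and 62.8 CPM in the senescent libraries, a log2 fold change of -1.31 ± 0.09 (adjusted p = 5.29e-06, edgeR). Zfp503 was at 12.1, 13.0 and 14.2 CPM against 20.4, 25.0 and 22.8 CPM, a change of 0.79 ± 0.10 (adjusted p = 0.000209). For neither gene did the groups overlap. Besides Zfp462, described above, the pluripotency factor Zfp281 rose, by 0.32 ± 0.12 (adjusted p = 0.0398), with its highest value in senescent replicate 3 (69.9 CPM, against 53.1 and 52.0 CPM in the other senescent and 43.8 to 49.1 CPM in the control libraries). Zfp467, which favours fat over bone, had -0.29 ± 0.13 (adjusted p = 0.0752). Zfp219, a partner of the cartilage factor SOX9, had -0.25 ± 0.21 (adjusted p = 0.315), whereas Sox9 itself fell by 2.08 ± 0.08 on the log2 scale (adjusted p = 2.84e-07) along with the chondrocyte markers. The 4 listed genes that were not members had few counts: Zfp42 (Rex1) had 0 and Zfp488 had 5 in all, Zfp536 had 27, and the epidermal factor Zfp750 had 186, 18 of them in the control libraries, with a change of 2.74 ± 0.29.

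**Figure D2:**
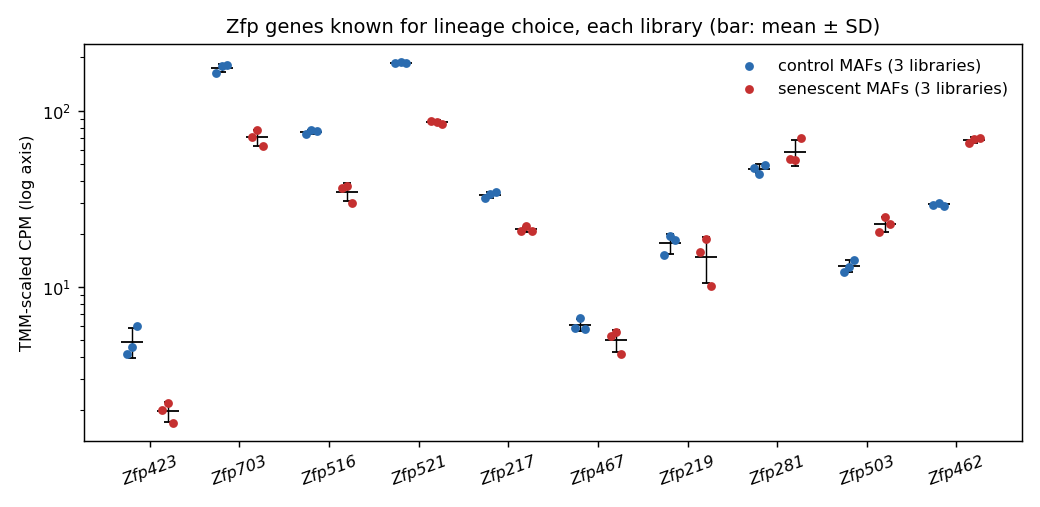
TMM-scaled CPM on a log axis for the 10 members known for lineage choice, in each of the 3 control (blue) and 3 senescent (red) libraries, with the mean and SD in black. Zfp423, Zfp703, Zfp516, Zfp521 and Zfp217 lie lower in every senescent library, Zfp503 and Zfp462 lie higher in every one, and the groups overlap for Zfp219.

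Of the 6 members known for retroelement silencing or imprint keeping, 3 were higher, 1 lower and 2 not called (66.7% called, against 70.3% of all genes tested), all within 0.56 of no change on the log2 scale. Zfp809, which recognises the primer site of murine leukemia proviruses, was at 17.4, 16.3 and 15.8 CPM in the control and 23.1, 22.3 and 27.5 CPM in the senescent libraries, a change of 0.56 ± 0.10 (adjusted p = 0.00118, edgeR). Zfp932, which acts on endogenous retroviruses, rose by 0.49 ± 0.11 (adjusted p = 0.00483), and Zfp568, which silences a placental promoter of Igf2, by 0.33 ± 0.07 (adjusted p = 0.00387). None of the 3 overlapped between the groups. Of the imprint keepers, Zfp57 was at 17.7, 16.0 and 16.3 CPM against 13.5, 13.3 and 14.8 CPM, a change of -0.26 ± 0.08 (adjusted p = 0.0205). Zfp445 was at 70.0, 62.7 and 66.1 CPM against 56.5, 54.1 and 67.5 CPM, a change of -0.16 ± 0.09 (adjusted p = 0.162). Without senescent replicate 3, its highest senescent library, Zfp445 was called lower at -0.25 (adjusted p = 0.000225). Zfp57 lost its call in 5 of the other fits.

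The cofactors that KRAB proteins depend on, none of them members, mostly fell. Of 20 listed genes, 16 were lower, 5 of them over 2-fold, 1 was higher and 3 were not called (80% lower, against 34.1% of all genes tested), with a median log2 fold change of -0.62, and the counts higher and lower were the same without senescent replicate 3. Uhrf1, which guides maintenance DNA methylation, fell from 106.5, 117.7 and 118.7 CPM in the control to 7.49, 7.42 and 5.91 CPM in the senescent libraries, a change of -4.04 ± 0.11 (adjusted p = 5.12e-08, edgeR). The maintenance methyltransferase gene Dnmt1 fell from 201.4, 204.8 and 208.1 CPM to 51.0, 50.6 and 43.6 CPM, by -2.08 ± 0.07 (adjusted p = 2.01e-07). Both are also genes of dividing cells, and Mki67 fell with them, but the part of halted division was not tested. The H3 lysine methyltransferase gene Suv39h1 had -1.39 ± 0.06 (adjusted p = 4.03e-07) and the deacetylase gene Hdac1 -0.92 ± 0.05 (adjusted p = 1.78e-06). Trim28 itself, the direct partner of the KRAB box, stood at 244.0, 254.5 and 252.3 CPM against 180.3, 185.1 and 144.9 CPM, a change of -0.56 ± 0.09 (adjusted p = 0.00101). Setdb1 changed least of those called, by -0.21 ± 0.06 (adjusted p = 0.0156), from 65.7, 64.9 and 63.9 CPM to 55.1, 53.9 and 59.7 CPM. Trim28 and Setdb1 are outside the rule for named genes and were chosen for their place in the pathway. The only cofactor that rose was Morc3, by 0.65 ± 0.07 (adjusted p = 6.41e-05).

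**Figure D3:**
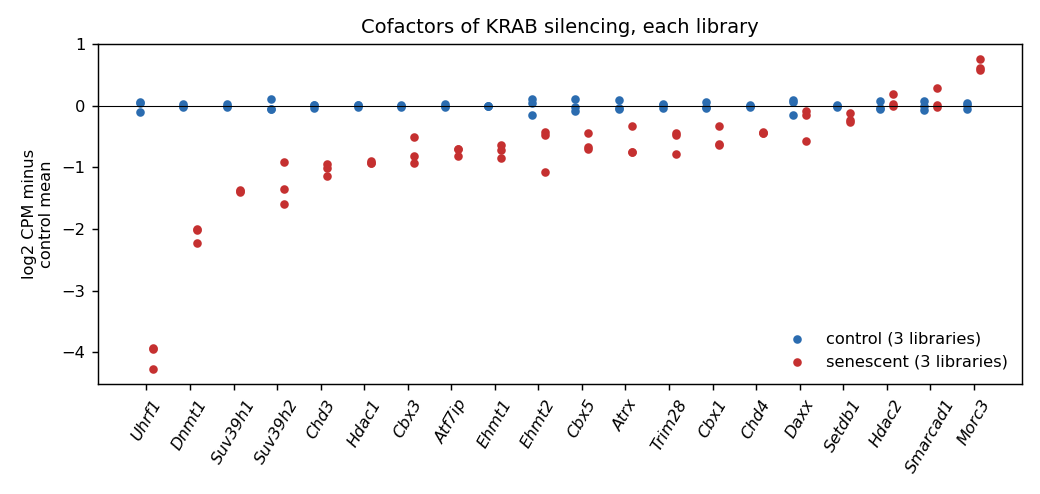
Each of the 20 listed cofactors of KRAB silencing is shown in the 3 control (blue) and 3 senescent (red) libraries as log2 CPM minus the control mean, ordered by log2 fold change. The senescent points lie below every control point for the 16 genes called lower, reaching about -4 for Uhrf1, and above them for Morc3.

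Members were sorted by the KRAB A-box pattern of amino acids in the longest coding sequence of each gene in GENCODE vM21, which was possible for 295 of the 296. The pattern was found in 141 members, of which 40 were higher and 30 lower (49.6% called), with a median log2 fold change of 0.05. It was absent from 154, of which 44 were higher and 58 lower (66.2% called), with a median of -0.13. Both shares were below the 70.3% called among all genes tested. Past the study's limits were 7 members with the pattern (4.96%) and 18 without it (11.7%), against 30.1% of all genes tested. A looser pattern that allows leucine at its end found 147 members, with medians of 0.04 and -0.13. A KRAB box that differs from the pattern would be missed, so members without the pattern may still carry a box. The sign of the KRAB median was not stable. Without senescent replicate 3 it was -0.02 (42 higher, 43 lower) against -0.07 without the pattern (51 higher, 64 lower), and with the GC and length trend of each library removed it was -0.05 (42 higher, 45 lower) against -0.01 (52 higher, 56 lower). Over all genes the first of these fits called 7052 higher and 6643 lower of 17779, and the other 7558 and 6007 of 17589. In senescent replicate 3 the KRAB members had a median log2 value 0.18 above the control mean, while senescent replicates 1 and 2 had -0.01 and -0.06.

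**Figure D4:**
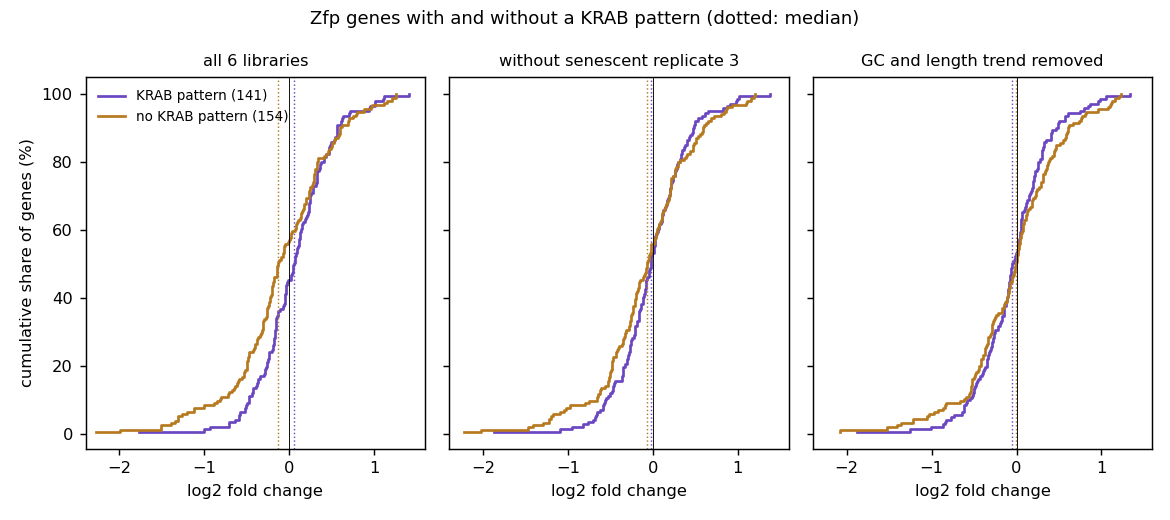
Cumulative share of genes in percent (vertical) against log2 fold change (horizontal) for the 141 Zfp genes with a KRAB pattern (purple) and the 154 without it (brown), from all 6 libraries, without senescent replicate 3, and with the GC and length trend of each library removed. Dotted lines mark the medians, 0.05 and -0.13 in the left panel, which come within 0.05 of each other in the other panels.

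Base composition moved with the values. KRAB members had a median of 42.0% G or C in their transcripts and members without the pattern 49.1%. Members were split by GC content into 3 groups of like size. With the lowest GC content 33 were higher and 17 lower (median log2 fold change 0.14), in the middle group 34 were higher and 27 lower (median 0.03), and with the highest 17 were higher and 45 lower (median -0.24). In that order 33.3%, 34.7% and 17.2% were higher, against 36.2% of all genes tested. Lower were 17.2%, 27.6% and 45.5%, against 34.1%. Over the 296 members the rank correlation of GC content with log2 fold change was -0.31, which became -0.15 without senescent replicate 3, and these points share libraries. Over all genes tested it was -0.17, and -0.08 without that library. Library by library, the rank correlation of GC content with the deviation from the control mean was -0.58 in control replicate 1 and -0.52 in senescent replicate 3, against 0.40 and 0.34 in the other controls and -0.18 and -0.11 in the other senescent libraries. All genes tested had the same signs: -0.44 and -0.31, against 0.33 and 0.28 and against -0.10 and -0.07. The trend was therefore not particular to Zfp genes. The deviations of the controls cancel for each gene by construction, so opposite signs among the controls cannot show which control carries a trend. The part of base composition in the changes of single genes was not tested beyond the fit with that trend removed. By number of fingers, 61 of 213 members with 8 or more finger patterns were higher and 56 lower (median 0.02), and 20 of 74 with 1 to 7 were higher and 29 lower (median -0.13). Called were 54.9% and 66.2% of them, against 70.3% of all genes tested. The largest number of finger patterns was 36.

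Neighbouring Zfp genes did not all move alike. With clusters taken as 3 or more numbered Zfp genes whose starts follow within 200 kb (mm10), 140 members lay in 24 clusters, 38 of them higher and 35 lower, and 4 were past the study's limits. Of the 156 members outside clusters, 46 were higher and 54 lower, and 21 were past those limits. Called were 52.1% inside and 64.1% outside clusters, against 70.3% of all genes tested. Past the limits were 2.86% and 13.5%, against 30.1%. Of all genes tested, 36.2% were higher and 34.1% lower, the shares to set beside the counts of each cluster. The fits without senescent replicate 3 and with the GC and length trend removed called more of all genes tested than the main fit. Near-identical copies lie side by side in such clusters, and how reads matching several copies were counted is not given in the sources used here, so values of single cluster members are less certain. The largest cluster, chr13:67038594-67827002, had 17 members, of which 1 was higher, 3 lower and 13 not called, from Zfp85 at -0.43 ± 0.12 to Zfp712 at 0.28 ± 0.12 (adjusted p = 0.0771). Its median log2 fold change was 0.04. Without senescent replicate 3, 1 was higher and 6 lower (median -0.02), and with the GC and length trend of each library removed none was higher and 7 lower (median -0.11). The cluster at chr17:21383748-22456689 had 15 members, all with a KRAB pattern, and 8 were higher and 1 lower, with a median log2 fold change of 0.44. Its extremes were Zfp52, which rose from 18.9, 19.3 and 20.8 CPM in the control to 39.8, 39.3 and 48.0 CPM in the senescent libraries (1.11 ± 0.09, adjusted p = 2.24e-05, edgeR), and Zfp820, which fell from 12.8, 12.4 and 12.9 CPM to 7.81, 7.69 and 9.68 CPM (-0.60 ± 0.11, adjusted p = 0.0013). Both changes had groups that did not overlap. The transcripts of this cluster had a median GC content of 38.5%, and its median change was 0.26 without senescent replicate 3 (8 higher, 3 lower) and 0.15 with the GC and length trend removed (7 higher, 4 lower).

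On chromosome 7, 14 members lay at chr7:29768552-30169727, 11 of them with a KRAB pattern. Here 8 were higher (against 36.2% of all genes tested) and 2 lower (against 34.1%), with a median log2 fold change of 0.23. These counts did not change without senescent replicate 3 (median 0.19) or with the GC and length trend removed (median 0.20), but with the replicate number as a block 5 were higher and 2 lower. The cluster ran from Zfp382, which fell by 0.49 ± 0.08 on the log2 scale (adjusted p = 0.00097, edgeR), to Zfp566, which rose from 3.47, 3.92 and 3.56 CPM to 7.25, 7.11 and 7.71 CPM (1.01 ± 0.09, adjusted p = 3.25e-05). A second group at chr7:4915217-5053722 had 6 members, none with a KRAB pattern, and 5 were lower and none higher, with a median of -0.61, the lowest of the 20 clusters with at least 3 members. Zfp524 was at 9.66, 10.7 and 9.26 CPM in the control and 4.60, 5.35 and 2.51 CPM in the senescent libraries (-1.26 ± 0.25, adjusted p = 0.00217). Zfp628 had -0.23 ± 0.25 and overlapped between the groups. The transcripts of these 6 genes had a median GC content of 61.2%, and with the GC and length trend removed the median was -0.29, with 4 lower. It was then no longer the lowest, as 4 members at chr9:22055460-22307638 had -0.49. Lower past the study's limits were 2 of the 6 in the main fit and 0 with the trend removed. Without senescent replicate 3 the medians of these clusters were close, at -0.53 and -0.51. The highest median, 0.58, was that of 3 genes at chr16:3744093-3884561, all higher, from Zfp174 (0.33 ± 0.12, adjusted p = 0.0428) to Zfp263 (0.60 ± 0.08, adjusted p = 0.000212). All 3 were also called without senescent replicate 3 and with the trend removed, but Zfp174 lost its call with the replicate number as a block (adjusted p = 0.0801), on leaving out control replicate 2 or 3 or senescent replicate 1 or 2 (adjusted p = 0.0535 to 0.156) and on protein-coding genes alone (adjusted p = 0.0539).

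**Figure D5:**
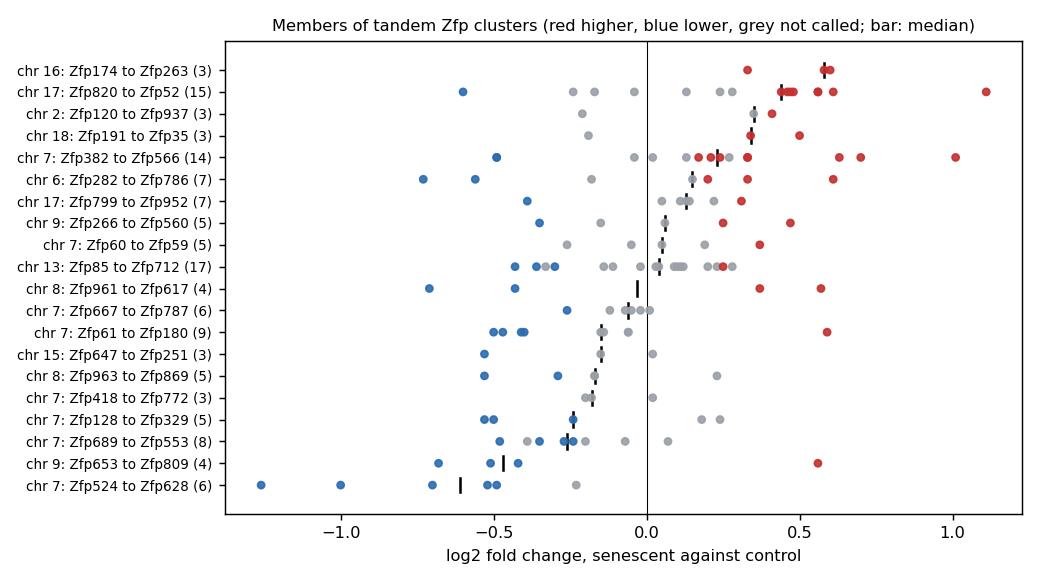
Each row is 1 of the 20 tandem clusters with at least 3 members (chromosome, lowest and highest member, number of members), each point the log2 fold change of 1 gene, and each black bar the median, with clusters ordered by it. Most rows hold genes on both sides of 0, whereas the 6 genes of the bottom row all lie below 0 and the 3 genes of the top row all lie above it.

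Members that bind RNA or work on ribosomes had 4 of 8 higher and none lower, so that 50% were called, against 70.3% of all genes tested. Zfp106, which binds RNA and is needed by motor neurons, was at 245.3, 227.1 and 231.8 CPM in the control and 368.0, 363.4 and 411.2 CPM in the senescent libraries, a log2 fold change of 0.70 ± 0.07 (adjusted p = 4.59e-05, edgeR). Zfp622, a maturation factor of the large ribosomal subunit, rose from 24.4, 24.8 and 25.9 CPM to 37.0, 35.0 and 39.3 CPM (0.57 ± 0.07, adjusted p = 0.000159). Zfp593, also tied to that subunit, was at 10.7, 11.5 and 12.5 CPM against 18.3, 19.4 and 12.6 CPM (0.53 ± 0.16, adjusted p = 0.0186), with senescent replicate 3 next to the controls. The call for Zfp593 was lost on leaving out any of 4 libraries. Zfp36 (tristetraprolin), which destabilises cytokine messages, was at 17.0, 17.4 and 16.5 CPM against 19.5, 20.7 and 16.2 CPM (0.15 ± 0.10, adjusted p = 0.224), and its groups overlapped. Without senescent replicate 3, 7 of the 8 were higher, Zfp36 among them at 0.25 (adjusted p = 0.00157), and 1 was lower. More of all genes tested were called in that fit too, as given above. The relatives of Zfp36 moved apart: Zfp36l1 fell by 0.73 ± 0.07 on the log2 scale (adjusted p = 2.90e-05) and Zfp36l2 rose by 0.67 ± 0.08 (adjusted p = 0.000171). Of the 11 relatives and deadenylation partners tested, 5 were lower and 2 higher (63.6% called), and the scaffold gene Cnot1 (-0.65 ± 0.06, adjusted p = 5.15e-05) and Cnot3 (-0.72 ± 0.10, adjusted p = 0.000322) were among the lower.

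Of 6 members tied to genome stability and division, 2 were higher and 4 lower, each of them called, against 70.3% of all genes tested. Zfp365, which p53 induces and which guards replication forks and telomeres, stood at 21.1, 22.0 and 21.2 CPM in the control and 45.7, 45.1 and 48.7 CPM in the senescent libraries, a log2 fold change of 1.12 ± 0.06 (adjusted p = 1.99e-06, edgeR). Its promoter is the one with the E-box above, its groups were far apart, and no C2H2 finger was found in it. Zfp451, a SUMO ligase that helps repair topoisomerase damage, rose from 53.4, 51.2 and 49.8 CPM to 72.5, 72.9 and 88.8 CPM (0.60 ± 0.09, adjusted p = 0.000488). Zfp367, a cell cycle regulator, fell from 33.1, 32.8 and 36.6 CPM to 20.2, 20.2 and 27.2 CPM (-0.60 ± 0.13, adjusted p = 0.00312). Zfp827, which recruits the NuRD complex to telomeres, had -0.48 ± 0.07, Zfp668 had -0.39 ± 0.12, and Zfp207 is given above.

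Of 12 members that act at promoters or in chromatin complexes, 2 were higher, 4 lower and 6 not called (50% called, against 70.3% of all genes tested). The related genes Zfp532, Zfp592 and Zfp687, whose products form a complex, did not move together. Zfp532 was at 46.8, 47.1 and 49.4 CPM in the control and 27.0, 27.4 and 22.9 CPM in the senescent libraries, a log2 fold change of -0.89 ± 0.08 (adjusted p = 3.61e-05, edgeR). Zfp687 was at 32.3, 33.8 and 34.8 CPM against 22.6, 24.7 and 18.4 CPM (-0.62 ± 0.11, adjusted p = 0.00129), and Zfp592 rose from 45.7, 49.3 and 46.5 CPM to 58.8, 58.0 and 54.9 CPM (0.28 ± 0.06, adjusted p = 0.0036). Zfp335, which is needed for neural progenitors, was at 29.9, 35.8 and 35.0 CPM against 25.3, 24.8 and 16.6 CPM (-0.60 ± 0.16, adjusted p = 0.0112), lowest in senescent replicate 3. The other members of this group lay between -0.49 (Zfp384, lower) and 0.34 (Zfp148, higher). Without senescent replicate 3, 4 of the 12 were higher and 7 lower, in a fit that called more of all genes tested too. Of the 3 members known as signalling adaptors, only Zfp91, a ubiquitin ligase for the kinase NIK, was called (0.30 ± 0.09, adjusted p = 0.018), and that call was lost without control replicate 2 or 3 (adjusted p = 0.058 and 0.0621). Outside the numbered names, 19 Zfp genes with a letter suffix and at least 600 counts had 7 higher and 2 lower (47.4% called, again against 70.3%).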

How the data were processed

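The authors prepared stranded mRNA libraries from the 6 MAF samples, aligned them to mm10 by STAR within MAPRSeq and used Subread for counting per gene. The deposited table holds these raw counts, not normalized (43346 genes). The strand setting and the handling of reads that match several genes are not given in the sources used here, so overlapping genes, antisense partners and near-identical copies are uncertain.

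Genes were tested on the whole table with edgeR 4.0.16 in R 4.3.3 (filterByExpr, TMM scaling, robust quasi-likelihood test, group as the only term, Benjamini-Hochberg adjustment over 17589 genes), and members were read from that fit. Standard errors are the log2 fold change over the square root of F. CPM values use TMM-scaled library sizes, and CPM per kb divides by the exon length in the table. GC content, finger patterns and the KRAB pattern came from GENCODE vM21 transcripts (98.8% of the genes found there had a start within 10 kb), and promoters from RefSeq.

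The members and lists were chosen with earlier results of these data known. Named genes were the 6 largest rises and the 6 largest falls past an adjusted p of 0.05 with no overlap, the 4 highest levels per length, list members past 0.05 with a log2 fold change over 0.5, the genes next to the limit of 600, up to 4 genes of smallest p in the cofactor and Zfp36 lists, and the extremes of clusters. The clusters described, and further genes named for their role, were chosen after their values were seen. Alternatives were another scaling (RLE or library size alone), other filters, edgeR's exact test, DESeq2 1.42.0, a replicate block, an offset that removes the GC and length trend of each library, each library left out, other limits of membership, and, added after seeing the data, a fit on protein-coding genes alone and a looser KRAB pattern. Groups of 3 were too small for a test of outlying samples.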

Additional observations from a re-analysis of the deposited data

How the results depend on the processing

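No member changed the sign of a call in any fit, and 117 of the 173 calls were made in every planned one. Leaving out 1 library gave 130 to 201 called members, 60 to 93 higher and 70 to 108 lower, the fewest without control replicate 3 and the most without senescent replicate 3. Deviations from the group means of control and senescent samples with the same number had correlations of -0.118, 0.117 and -0.103. The largest of any control and senescent sample, 0.226, was that of control replicate 1 and senescent replicate 3, which both had a strong GC trend against the control mean. Such correlations cannot decide whether samples were paired. The replicate block called 145 members, 70 higher and 75 lower. Raising the limit to 6000 counts left 83 called members (46 higher, 37 lower) and 13 past the study's limits (6 higher, 7 lower), among fewer genes. A limit of 60, which takes in more genes, gave 16 higher past those limits. The sizes of these sets are not given here, so their counts cannot be set against the shares over all genes tested. Leaving out tandem clusters left 100 called (46 higher, 54 lower) of 156 members, or 64.1%, against 70.3% of all genes tested.

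The median of all members, -0.04, was 0.04 with scaling by library size alone, 0.01 with at least 10 counts in every library, 0.10 at 6000 counts, and -0.05 to 0.02 on leaving out 1 library, the highest without senescent replicate 2. Leaving out 1 library gave KRAB medians of -0.02 to 0.11. The KRAB median became -0.05 and the median without the KRAB pattern -0.01 with the GC and length offset, which set the median of all genes at 0.08. The median without the KRAB pattern was also -0.11 with RLE, -0.06 with library size alone, -0.09 with at least 10 counts, -0.12 with DESeq2, -0.15 on protein-coding genes alone and -0.14 to -0.07 on leaving out 1 library. The cause of these shifts was not tested. Zfp580 turned to 0.02 and Zfp628 to 0.12 with the offset, and Zfp628 ranged from -0.44 to 0.04 on leaving out 1 library, the highest without senescent replicate 3. Of 58 named genes, 45 kept direction and side of the threshold in all 15 other fits. Members had 620 to 121049 counts over the 6 libraries, so counting error weighs most on the least abundant.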
